A study of Arabidopsis thaliana with 15 samples.

Results

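The CURT1 genes of Arabidopsis thaliana encode the curvature thylakoid proteins. The family was taken as the 4 loci CURT1A (AT4G01150), CURT1B (AT2G46820, also named PSI-P), CURT1C (AT1G52220) and CURT1D (AT4G38100), matched by locus identifier among 14190 genes of a count table. CURT1A, CURT1B and CURT1C were found there. CURT1D was not analysed here. Of these 3 genes, 2 (CURT1A and CURT1B) passed the low count filter and entered the tests, among 10374 genes in all. The family was chosen with earlier results of these data known, among them the high level of CURT1B at the highest toxin dose against the controls. All values that involve that dose are therefore given for the members as a description, without a test.

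CURT1 proteins are small membrane proteins of the chloroplast that collect at the margins of the grana, the stacked parts of the thylakoid membrane, and bend the membrane there. In Arabidopsis, plants without them form fewer and broader stacks, and plants with more CURT1A form taller and narrower ones. CURT1B was first described as a subunit of photosystem I, which gave it the name PSI-P, before it was placed in the curvature family. Thylakoids are the site of the light reactions, and light drives the toxin of these experiments as well.

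Whole Col-0 seedlings, 2 weeks old, were profiled by bulk MARS-seq, which reads the 3' ends of transcripts, with 3 libraries in each of 5 groups. In 4 of the groups seedlings were given cercosporin, a light-activated toxin of Cercospora fungi that produces singlet oxygen, at 0.1, 1, 10 or 100 µM. Toxin was applied in the dark for 1 h and rinsed off in 3 washes, after which these seedlings spent 30 min at 30 µE of light. The untreated controls had no agent and stayed in light throughout, so a comparison with them holds toxin, dark step and washing together, whereas the doses share 1 light regime. All groups had been grown on medium with sucrose and held in water before treatment. The labels do not say whether replicates came from separate cultures, and p-values measure the spread between these libraries, which may be technical.

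Library totals lay between 834190 and 4554702 counts. The 3 libraries of 100 µM stood apart: their scores on the first principal component of log2 CPM (51.0% of the variance) ran from 74.4 to 104.9, and those of the other libraries from -32.4 to -13.7. On the second component (11.2%) replicate 1 of 100 µM was at 59.7 and its replicates 2 and 3 at -41.9 and -30.8. The sample codes of the 100 µM libraries begin with a digit that no other group has, so dose and code digit cannot be told apart there; what the digit marks is not stated. Both shoot and root were represented. The summed level of 6 green tissue markers was 20587 to 28885 CPM in the other libraries, and at 100 µM 11971 CPM in replicate 1 against 25622 and 25629 CPM in replicates 2 and 3. Most of this sum was RBCS1A, a small subunit of Rubisco, at 18310 CPM in the controls and 13062 at 100 µM. RBCS1A was not called (log2 change -0.48, edgeR adjusted p = 0.190), whereas RCA (0.66, adjusted p = 0.00353) and CA1 (0.56, adjusted p = 0.0185) were called higher. The other green markers, GAPA (-0.35), LHB1B1 (0.07) and LHCB3 (0.69), were not called. The summed level of 7 root markers ranged between 159 and 201 CPM in the controls and between 147 and 201 CPM at 10 µM. It was higher in every library of 0.1 µM (235 to 258 CPM) and 1 µM (226 to 276 CPM), and 174 to 310 CPM in those of 100 µM. At 100 µM PHT1;1, a phosphate transporter, was at 137 CPM against 64.4 in the controls (log2 change 1.11, edgeR adjusted p = 0.00245). EXPA7 was called higher as well (1.26, adjusted p = 0.0323). CASP1 (-0.02), SCR (-0.17), PIN2 (-0.66) and NRT2.1 (0.30) were not called, and COBL9 was not tested. Transcripts of the chloroplast genome took 0.205% to 0.248% of counts at 100 µM and 0.358% to 0.688% elsewhere. Those of the mitochondrial genome were lower at 100 µM as well, at 0.312% to 0.438% against 0.771% to 1.45% elsewhere. In whole seedlings, fewer cells of a type and less RNA per cell cannot be told apart. The part of these differences in the results that follow was not tested.

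CURT1B, the member whose value led to the choice of the family, lay between 10.9 and 22.8 CPM in every library below 100 µM. CPM are counts scaled to a common library total with TMM factors. The controls held 39, 19 and 21 counts, equal to 17.9, 10.9 and 11.3 CPM. At 0.1 µM the levels were 22.8, 15.8 and 16.1 CPM, and at 1 µM they were 19.6, 18.2 and 21.3 CPM. At 10 µM the levels were 16.4, 14.1 and 21.8 CPM. The libraries of these 4 groups thus shared 1 range, with control replicates 2 and 3 at its low end. At 100 µM the 3 libraries held 349, 169 and 571 counts, or 224, 165 and 195 CPM. Each of these lay far above the highest library of any other group, and replicate 1 was the highest of them.

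CURT1A, the member whose overexpression gives taller stacks in Arabidopsis, was at 17.9, 17.2 and 17.7 CPM in the controls, from 39, 30 and 33 counts. At 0.1 µM it stood at 26.9, 34.6 and 22.6 CPM, all above the controls. At 1 µM the levels were 23.8, 22.7 and 24.8 CPM, again above every control library. At 10 µM they were 19.5, 9.63 and 17.9 CPM, overlapping the controls and below every library of 0.1 and 1 µM. At 100 µM they were 137, 112 and 104 CPM, from 213, 115 and 305 counts, with no overlap with any other group.

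CURT1C, the third family member in the table, was close to the limit of detection. It held 2, 0 and 0 counts in the controls, 1 count in each library at 0.1 µM, 1, 0 and 7 at 1 µM, and 2, 3 and 0 at 10 µM. At 100 µM there were 5, 2 and 5 counts, or 3.21, 1.95 and 1.70 CPM. A count of 0 allows up to 1.72 CPM in control replicate 2 and 1.61 CPM in control replicate 3 (3 counts of the scaled total, counting error only). The 1 µM group overlapped the 100 µM group through its replicate 3, at 2.23 CPM.

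**Figure D1:**
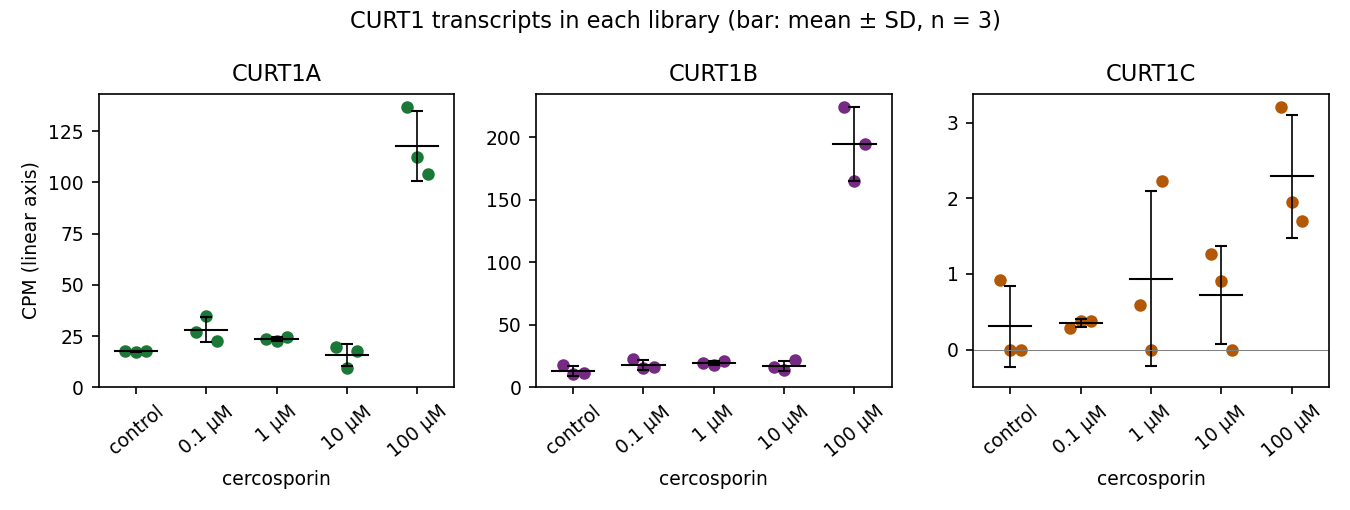
Level of CURT1A, CURT1B and CURT1C in CPM (linear axes, each panel with its own range) in every library of the 5 groups; points are libraries in the order of their replicate numbers, and bars give the mean ± SD (n = 3). CURT1A and CURT1B stood at 104 to 137 and 165 to 224 CPM at 100 µM, above all other libraries, while CURT1C stayed under 4 CPM throughout.

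Ordered by group mean, CURT1B ran from the controls (13.4 ± 3.95 CPM, SD, n = 3) through 10 µM (17.4 ± 3.96), 0.1 µM (18.2 ± 3.98) and 1 µM (19.7 ± 1.55) to 100 µM (195 ± 29.8). Each pair of neighbours below 100 µM overlapped. CURT1A ran from 10 µM (15.7 ± 5.30 CPM) and the controls (17.6 ± 0.363), which overlapped, to 1 µM (23.8 ± 1.03) and 0.1 µM (28.0 ± 6.11), which overlapped as well, and then to 100 µM (118 ± 17.2). For CURT1A there was a gap between the controls and 1 µM. The order of the lower doses thus differed between both genes, with 10 µM lowest for CURT1A and the controls lowest for CURT1B. That 10 µM was lowest for CURT1A rests on replicate 2 of 10 µM, at 9.63 CPM. Without that library CURT1A at 10 µM was at a log2 change of 0.074 from the controls in place of -0.20. For CURT1C the means were 0.306 CPM in the controls, 0.353 at 0.1 µM, 0.721 at 10 µM, 0.940 at 1 µM and 2.29 at 100 µM, and every pair of neighbours overlapped.

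The difference at 100 µM was the value behind the choice of these genes. CURT1B was 14.4-fold higher there than in the controls, a log2 change of 3.85 ± 0.24 (edgeR estimate, SE), and 135th from the top of 10374 genes. CURT1A was 6.67-fold higher (log2 change 2.74 ± 0.24) and 453rd from the top. For CURT1C, 12 counts among 5515990 stood against 2 among 5796020, a ratio of 6.30 with a counting interval of 1.40 to 58.0 (exact conditional binomial, 95%). At this dose 22.1% of all genes tested lay above the controls without overlap, and 32.7% passed the edgeR test in either direction, so large differences were common in these libraries and nothing particular to CURT1 is read from them.

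Against the mean of 0.1, 1 and 10 µM, which had the same dark step and washes, the log2 change at 100 µM was 3.39 ± 0.16 for CURT1B and 2.43 ± 0.17 for CURT1A. With replicate 1 of 100 µM left out, the library that stood apart on the second component and had the lowest green marker sum, CURT1B was at 3.72 and CURT1A at 2.60 against the controls. Both genes were highest in that library, and the part of the green marker level in their values was not tested.

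Comparisons below 100 µM do not involve the level of CURT1B at 100 µM that led to the choice of the family. Neither CURT1A nor CURT1B passed the edgeR quasi-likelihood test, adjusted over all genes by Benjamini-Hochberg, in any of 6 comparisons among the controls, 0.1, 1 and 10 µM. Few genes of any kind did: the share of all genes called was 0% at 0.1 µM, 0.183% at 1 µM and 0.00964% at 10 µM against the controls, and 0% from 0.1 to 1 µM, 0.106% from 0.1 to 10 µM and 0.887% from 1 to 10 µM. At an unadjusted p under 0.05 the same test passed CURT1A higher at 0.1 µM than in the controls, as it did for 2.43% of genes, and lower at 10 µM than at 0.1 µM (3.15% of genes) and 1 µM (5.38%). CURT1B passed at that level at 1 µM against the controls, as did 2.81% of genes. DESeq2 called 0 genes at 0.1 µM against the controls and 19 from 0.1 to 1 µM, and neither CURT1 gene in any of the 6 comparisons.

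For CURT1A at 0.1 µM against the controls the log2 change was 0.67 ± 0.24 (95% interval 0.15 to 1.18; edgeR adjusted p = 0.802). All 3 libraries were above all controls, as was the case for 7.22% of genes. At 1 µM it was 0.44 ± 0.26 (-0.10 to 0.98; adjusted p = 0.849), again with all 3 libraries above, as for 6.16% of genes. At 10 µM it was -0.20 ± 0.25 (-0.73 to 0.34; adjusted p = 0.987). The upper bounds of these intervals are 2.26-fold at 0.1 µM and 1.97-fold at 1 µM, below the 6.67-fold of 100 µM.

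Among the doses, CURT1A was lower at 10 µM than at 0.1 µM by the largest margin below 100 µM, with a log2 change of -0.86 ± 0.24 (-1.36 to -0.36; edgeR adjusted p = 0.271). All 3 libraries of 10 µM lay under all of 0.1 µM, as for 7.31% of genes. From 1 to 10 µM the change was -0.64 ± 0.25 (-1.16 to -0.11; adjusted p = 0.300), again without overlap, as for 9.68% of genes. From 0.1 to 1 µM it was -0.22 ± 0.24 (adjusted p = 0.923). The slope over these doses was -0.43 ± 0.13 log2 units per 10-fold of dose over 9 libraries (-0.70 to -0.15; edgeR adjusted p = 0.286). For this slope edgeR called 0% of 9653 genes, 3.39% were lower at an unadjusted p under 0.05, and DESeq2 called 43 genes. Replicate 2 of 10 µM, at 9.63 CPM, was the lowest library. Without it the change from 0.1 to 10 µM was -0.59 and that from 1 to 10 µM was -0.37.

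For CURT1B the log2 changes against the controls were 0.44 ± 0.25 at 0.1 µM (-0.09 to 0.97), 0.56 ± 0.26 at 1 µM (0.01 to 1.11) and 0.39 ± 0.25 at 10 µM (-0.14 to 0.92), with edgeR adjusted p = 0.920, 0.772 and 0.943. The 1 µM libraries lay above all controls, but the lowest of them, at 18.2 CPM, was close to control replicate 1 at 17.9 CPM. Such a gap was seen for 6.16% of genes. The changes between doses were 0.12 ± 0.24 from 0.1 to 1 µM, -0.05 ± 0.23 from 0.1 to 10 µM and -0.18 ± 0.25 from 1 to 10 µM (edgeR adjusted p = 0.964, 0.999 and 0.864). The slope over these doses was -0.03 ± 0.12 (-0.28 to 0.23; adjusted p = 0.991). The upper bound at 1 µM, a log2 change of 1.11, is the highest of the 3 intervals against the controls, where 100 µM was at 3.85. These 3 comparisons share the control libraries. Among the control libraries, replicate 1 was the highest for CURT1B, and without it the changes were 0.72 at 0.1 µM, 0.85 at 1 µM and 0.66 at 10 µM.

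**Figure D2:**
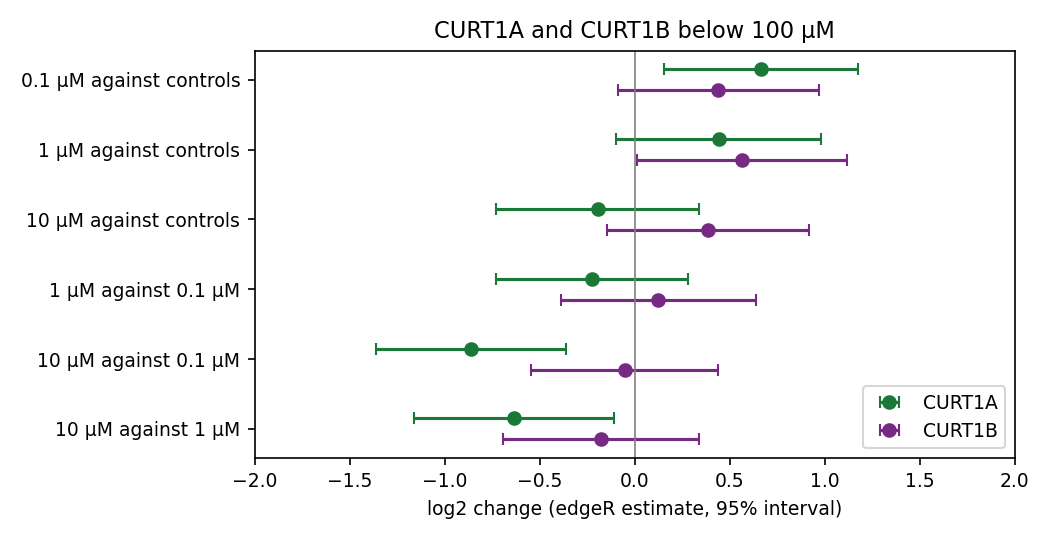
Log2 change of CURT1A (green) and CURT1B (purple) in the 6 comparisons that leave out 100 µM; points are edgeR estimates and bars their 95% intervals. The interval of CURT1A from 0.1 to 10 µM runs from -1.36 to -0.36, and no change passed the test after adjustment over all genes.

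The sample codes of 10 µM share their first digit with 1 control library, replicate 2. That control stood at 17.2 CPM for CURT1A, inside the range of 10 µM (9.63 to 19.5 CPM), and at 10.9 CPM for CURT1B, below the range of 10 µM (14.1 to 21.8 CPM). With the digit as a term, and without the 100 µM libraries, CURT1A was at -0.82 from 0.1 to 10 µM and CURT1B at 0.37, and neither passed. The part of the digit in these values was not tested beyond this.

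The makeup of the CURT1 transcripts can be followed within each library, where depth cancels out. Reads of this protocol come from 3' ends and do not scale with transcript length, but capture may differ between genes, so the share of each gene is compared across libraries and not with that of another gene. CURT1B took 48.8%, 38.8% and 38.9% of the CURT1 counts in the controls, and 45.6%, 31.1% and 41.2% at 0.1 µM. At 1 µM it took 44.6%, 44.4% and 44.1%. At 10 µM the shares were 44.1%, 57.3% and 55.0%. At 100 µM they were 61.6%, 59.1% and 64.8%, above the share in each other library. The high level of CURT1B at this dose led to the choice of the family, so its high share there is a description, and nothing is read from it.

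The exact binomial intervals at 100 µM, from 286 to 881 CURT1 counts, ran from 53.1% to 68.0%. Those of the controls, from 49 to 80 counts, ran from 25.2% to 60.2%, and thus overlapped those of 100 µM. The mean share was 42.1% ± 5.73 in the controls, 39.3% ± 7.46 at 0.1 µM, 44.4% ± 0.265 at 1 µM, 52.1% ± 7.08 at 10 µM and 61.8% ± 2.87 at 100 µM (SD, n = 3). CURT1A took the complementary part, from 57.0% ± 7.17 in the controls to 37.5% ± 2.80 at 100 µM. CURT1C took 0% to 4.61% in any library, with 4 libraries at 0.

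**Figure D3:**
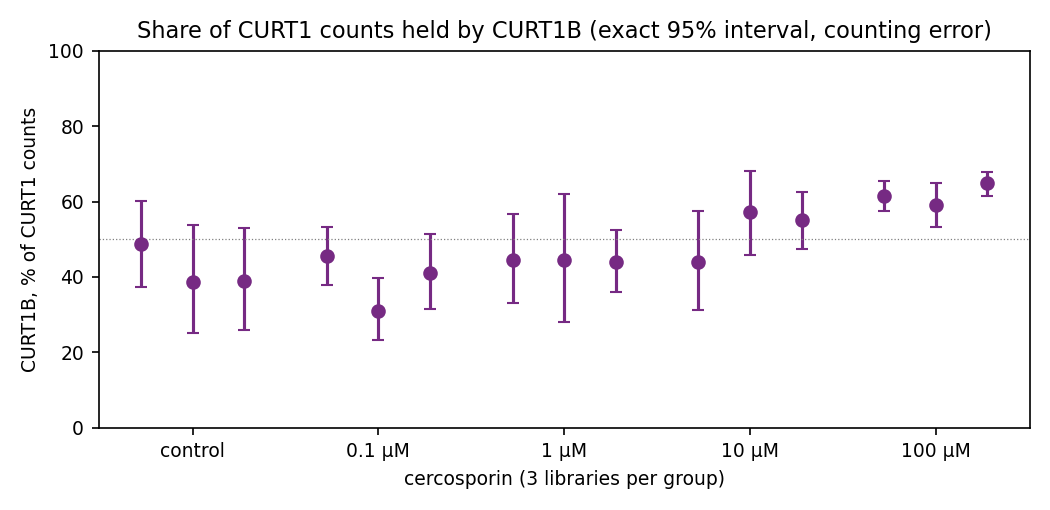
Share of the counts of CURT1A, CURT1B and CURT1C that came from CURT1B, in percent, in each of 15 libraries ordered by group and replicate number; bars are exact 95% binomial intervals and cover counting error only, and the dotted line marks 50%. The 100 µM libraries lie at 59.1% to 64.8% and the controls at 38.8% to 48.8%.

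Counts of the 3 genes could be told apart in the reference. The last 500 bases of their transcripts held no alignment of at least 75 bases at 90% identity with any other gene or with each other (TAIR10.1 annotation, blastn), and none of the 3 overlaps another gene there. The longest alignment at that identity was 26 bases. The gene next to CURT1C is PSAH2 (AT1G52230), a photosystem I subunit gene read from the opposite strand. PSAH2 stood at 10.5 ± 3.42 CPM in the controls and at 130 ± 27.7 CPM at 100 µM (SD, n = 3), where CURT1C held 12 counts in all.

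Among the other tested genes, the 5 whose group means ran closest to those of CURT1B were PPa1, PBCP, AT5G39520, PSAF and AT4G27450. Closeness was measured as the root mean square difference of the log2 CPM group means, relative to the controls, over the 4 doses, and ran from 0.123 (PPa1) to 0.159 (AT4G27450). PPa1, an inorganic pyrophosphatase, was at 0.41, 0.76, 0.35 and 3.66 log2 units above its control mean from 0.1 to 100 µM, where CURT1B was at 0.44, 0.56, 0.38 and 3.80, in the same order. PSAF, a photosystem I subunit, was at 0.61, 0.72, 0.20 and 3.72. PBCP is a phosphatase of photosystem II core proteins and was at 0.23, 0.69, 0.37 and 3.71, but with 2 counts over the controls its profile depends on the prior count of 2, as does that of AT5G39520, which held 0 counts in the controls. AT4G27450 was low in the controls too, at a mean log2 CPM of 1.01. The likeness rests mostly on 100 µM, where all of these nearest genes were high.

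The nearest profiles of CURT1A were those of AT5G48110, MES16, AT5G52190, AT2G17500 and NRPE5, at 0.122 to 0.143. MES16, a methyl esterase that acts on chlorophyll breakdown products, was at 0.53, 0.61, -0.10 and 2.60, where CURT1A was at 0.62, 0.41, -0.22 and 2.67. All 5 were low in the controls, with mean log2 CPM between 0.26 and 1.37. A count of 0 is at -0.23 on this scale, so the profiles of these 5 genes depend on the prior count as well. CURT1A and CURT1B were 0.650 apart, and CURT1A was the 214th nearest of 10373 genes to CURT1B.

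Other genes that shape thylakoids were taken as 5 lists of 39 genes, of which 33 were in the table and 28 were tested. In the 6 comparisons among controls and doses up to 10 µM, 0 of the 28 passed the edgeR test in either direction. The lowest values among them were those of PGR5, a protein of cyclic electron flow, and VIPP1, a membrane remodelling protein of plastids, at 0.1 µM against the controls. PGR5 was at -1.60 ± 0.39 (adjusted p = 0.445 by edgeR) and VIPP1 at -1.50 ± 0.52 (adjusted p = 0.761).

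At 100 µM against the controls, 9 of the 28 rose and 1 fell by edgeR, where 18.1% of all genes rose and 14.6% fell. The median log2 change of the 28 was 0.11, and that of all genes -0.02. The contrast is the one the family was chosen on, and nothing is read from this count. The rises include PBCP and PGRL1A, which passed the low count filter only through the 100 µM libraries. With 1 library left out there were 7 to 9 rises and 0 to 3 falls. Against the mean of the lower doses 10 rose and 2 fell, where 23.1% of all genes rose and 19.2% fell.

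Of the 6 tested genes of grana stacking and state transitions, in which light-harvesting complexes move between photosystems, 2 rose and 0 fell. Over all genes 18.1% rose and 14.6% fell, and nothing is read from this count. TAP38, the phosphatase of light-harvesting complex II, rose from 146 ± 12.2 to 294 ± 18.7 CPM (log2 change 1.02 ± 0.14, edgeR adjusted p = 3.56e-05). PBCP held 2 counts in the controls and 79 at 100 µM, a ratio of 41.5 (counting interval 11.1 to 349), and was called higher by edgeR. It passed the low count filter only through the 100 µM libraries, at 12.9 to 15.6 CPM against at most 2.63 elsewhere. Its call thus depends on the dose where it is high, and no p-value is given. STN7, the kinase opposed by TAP38, was at 0.84 ± 0.39 (adjusted p = 0.109), and without replicate 1 of 100 µM it passed. STN8, the kinase opposed by PBCP, was at -0.12 ± 0.24 (adjusted p = 0.756), and PSB33, a protein associated with photosystem II, was lowest in the list at -0.41 ± 0.17 (adjusted p = 0.0774).

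Of 7 genes of thylakoid membrane formation, 2 rose, where 18.1% of all genes did, and nothing is read from this count. VIPP1 stood at 4.14, 2.87 and 4.84 CPM in the controls and at 18.6, 32.2 and 27.9 CPM at 100 µM (log2 change 2.71 ± 0.39, edgeR adjusted p = 4.59e-05). CAO, the cpSRP43 subunit of the particle that delivers light-harvesting proteins, rose by a log2 change of 0.57 ± 0.18 (adjusted p = 0.0204), a call that was lost without replicate 1 of 100 µM. It passed in 18 of 23 alternatives and was lost as well without replicate 2 or 3 of the controls, with the compared groups fitted alone and with thinned counts. Its partner CPSRP54 was lowest in the list, at -0.54 ± 0.31 (adjusted p = 0.200). In replicate 1 of 100 µM it was at 14.8 CPM, where the controls held 46.5 to 62.5 CPM. Replicate 2 was below that range too, and replicate 3, at 55.2 CPM, was inside it. The insertase gene ALB3 was at -0.21 ± 0.29 (adjusted p = 0.612). This value rests on replicate 1, at 72.6 CPM. Replicates 2 and 3 were at 222 and 250 CPM, and the controls at 198 to 236 CPM. THF1, a thylakoid formation protein, was at -0.53 ± 0.23 (adjusted p = 0.0876), with every 100 µM library below every control.

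Lipid synthesis genes were mostly too low to test, with 1 of 7 past the filter. MGD1, which makes the main galactolipid of thylakoids, fell by a log2 change of -0.59 ± 0.22 (edgeR adjusted p = 0.0465), a call close to the threshold that was lost with other scaling factors, with DESeq2 or limma-voom, with the compared groups fitted alone and with thinned counts. It was lost as well without replicate 1 or 2 of the controls or of 100 µM, and passed in 13 of 23 alternatives. In the list of cyclic electron flow and ion transport, PGRL1A held 5 counts in the controls and 73 at 100 µM (ratio 15.3, counting interval 6.28 to 48.7). It was called higher by edgeR, a call lost with thinned counts. Like PBCP, it passed the low count filter only through the 100 µM libraries, at 10.7 to 15.4 CPM against at most 3.50 elsewhere, so no p-value is given. PGR5, the partner of PGRL1A, was at -0.19 ± 0.37 (adjusted p = 0.729).

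Because CURT1B carries the name of a photosystem I subunit, the 12 nuclear genes of that complex were set beside it, with the values of PSAF and PSAH2 already known when the list was made. At 100 µM against the controls 4 were called higher and 0 lower, a count that includes those known genes. Over all genes 18.1% were higher and 14.6% lower, and nothing is read from this count. PSAF stood at 98.8, 66.0 and 53.2 CPM in the controls and at 929, 889 and 997 CPM at 100 µM, a log2 change of 3.69 ± 0.24. PSAH2 was at 3.62 ± 0.28. The other rises were PSAN (1.17 ± 0.39, edgeR adjusted p = 0.0278) and PSAD2 (1.10 ± 0.16, adjusted p = 4.68e-05). PSAD2 passed in all 23 alternatives. PSAN passed in 18 of them and was lost without replicate 2 or 3 of the controls or replicate 2 of 100 µM, with the compared groups fitted alone and with thinned counts.

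Against the controls the remaining 8 subunit genes did not pass and lay between -0.46 (PSAH1) and 0.33 (PSAE2). Against the mean of the lower doses, which shared the dark step and washes, 4 were higher and 2 lower. Among all genes 23.1% were higher and 19.2% lower in this comparison. The 2 lower genes were PSAH1 at -0.51 ± 0.16 (edgeR adjusted p = 0.0146) and PSAL, another subunit of the complex, at -0.49 ± 0.13 (adjusted p = 0.00548). Against the controls PSAH1 was called lower in 6 of 23 alternatives and PSAL in 4 of 23. Both were called with the replicate block (-0.43 and -0.35) and without the low count filter (-0.54 and -0.43). Neither was called with other scaling factors, with DESeq2 or limma-voom, with the compared groups fitted alone or with thinned counts. For subunits H and D the genes of the same subunit differed. PSAH1 stood at -0.46 ± 0.19 where PSAH2 was at 3.62 ± 0.28, and PSAD1 at 0.14 ± 0.17 where PSAD2 was at 1.10 ± 0.16. The genes of subunit E, PSAE1 and PSAE2, were close in summed counts, with ratios to the controls of 1.11 and 1.20, and neither passed. These ratios are another measure than the edgeR log2 changes of subunits H and D, on which PSAE2 was at 0.33. CURT1B at 3.85 ± 0.24 and CURT1A at 2.74 ± 0.24 stand beside these values as a description, since CURT1B, PSAF and PSAH2 were all known to be high when the genes were chosen.

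**Figure D4:**
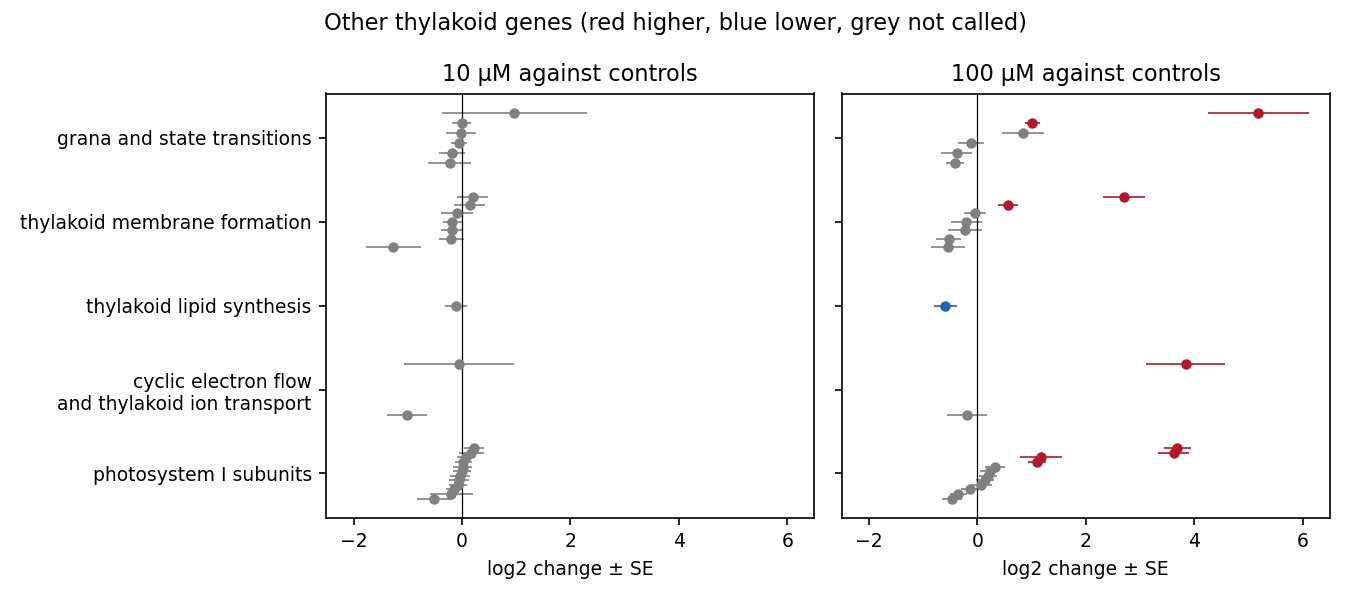
Log2 change ± SE (edgeR) of the 28 other thylakoid genes tested, by list, at 10 µM (left) and 100 µM (right) against the controls; red marks genes called higher, blue lower and grey not called. At 10 µM no gene was called, and at 100 µM 9 were higher and 1 lower, with 4 of the 9 in the list of photosystem I subunits. That list holds 12 of the 28 genes, and PSAF and PSAH2 were known to be high when it was made.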

How the data were processed

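The measurement was bulk MARS-seq of 15 libraries. The submitters' processing notes name bcl2fastq 2.17.1.14, cutadapt 1.8.3, STAR, HTSeq and DESeq2; the sources used here give no genome build, annotation or strand setting. The deposited table, per the file headers and its name, holds raw counts without a filter on unique molecular identifiers, so amplification copies are included and counting intervals cover counting error only. The authors' normalized columns are a signal (each library's counts over its size factor), and the authors' regularised columns are log2 values. Neither was used for results. Unmapped columns with sample values numbered 0. Groups follow the labels of each sample.

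Counts of 14190 genes were analysed in R 4.3.3 with edgeR 4.0.16, using filterByExpr by group (10374 genes left), TMM factors and quasi-likelihood tests with 1 term per group over all 15 libraries, at an adjusted p of 0.05 (Benjamini-Hochberg). The biological coefficient of variation was 20.6%. Standard errors and 95% intervals come from that fit. Log2 CPM used a prior count of 2. The dose slope used the 9 libraries of 0.1 to 10 µM and a filter of its own (9653 genes). The procedure was tested on simulated data. DESeq2 1.42.0, limma-voom (limma 3.58.1), other factors, other sets of libraries, the replicate block and thinning were alternatives. Similar 3' ends were sought with blastn 2.17.0 in the TAIR10.1 annotation, whose coordinates are not printed. Protein and promoter sequences were not used here. Every member was named, and from the lists genes called below 100 µM, the highest and lowest at 100 µM, the 5 closest profiles and neighbouring genes in the table; other list genes were chosen after their values were seen. Members and lists were chosen with earlier results of these data known.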

Additional observations from a re-analysis of the deposited data

How the results depend on the processing

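For CURT1A and CURT1B, 0 calls were made below 100 µM under each of the 16 alternatives run per comparison, DESeq2 and limma-voom among them, and the lowest adjusted p was 0.150 (CURT1A from 0.1 to 10 µM, range 0.150 to 0.749). At 100 µM against the controls CURT1A stayed between 2.60 and 2.90 and CURT1B between 3.70 and 4.09, all above 0. Thinning to the smallest library total, 834190 counts, left few counts per control library: it moved CURT1A at 100 µM to 2.90, CURT1B against the mean of the lower doses to 3.88, and turned the sign of CURT1B at 0.1 µM (-0.66), from 0.1 to 10 µM (0.79) and in the slope (0.38). With the code digit as a term CURT1B was at 0.37 from 0.1 to 10 µM and at 0.24 from 1 to 10 µM. Leaving out 1 library put CURT1A at 10 µM between -0.37 and 0.074 (without replicate 2 of 10 µM), CURT1B from 0.1 to 10 µM between -0.29 and 0.17, and its slope between -0.12 and 0.056. The causes were not tested. The falls among the thylakoid lists at 100 µM numbered 0 with DESeq2 size factors, upper quartile factors, DESeq2 or limma-voom, 4 without a low count filter and 4 with the replicate block, and 0 to 3 with 1 library left out, an alternative added after seeing the data; against the mean of the lower doses they were 2 to 5. DESeq2 called 1 list gene lower from 1 to 10 µM (PSAD2, -0.56, adjusted p = 0.0351). Of 30 pairs of libraries with the same replicate number in different groups, 6 had deviations correlated above 0.1 (median 0.0102). Of 60 pairs with different numbers 7 did (median -0.0243). Whether replicate numbers pair the libraries was not tested beyond this and the replicate block. Over all genes, DESeq2 against edgeR called 76 against 19 at 1 µM, 4 against 1 at 10 µM, 43 against 11 from 0.1 to 10 µM and 216 against 92 from 1 to 10 µM; without the 100 µM libraries edgeR called 56, 4, 33 and 232, and with the code digit as a further term 39, 1, 2 and 11. Fitting the compared groups alone gave 2223 calls at 100 µM, and thinning 1319. The replicate block changed no call of CURT1A or CURT1B, with 0 calls below 100 µM, and moved the count of all genes at 100 µM from 3392 to 3469. With 19 to 39 counts per control library, precision was limited: the 95% interval of CURT1B at 0.1 µM ran from -0.09 to 0.97.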
